A study of Mus musculus with 21 samples.

Results

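Double-positive thymocytes of HDAC7-VP16 transgenic mice were compared with those of wild-type mice on 6 of the 21 arrays of this study, the 3 HDAC7-VP16 arrays (numbered 1 to 3) and the wild-type arrays numbered 4 to 6, which the authors normalized together. The members were chosen from the sample titles, and of the 35556 rows in the value table the 28923 outside the control block and without second probe sets of a gene were tested. The cells were thymocytes bearing both CD4 and CD8, purified by flow sorting, and each RNA was hybridized to 1 Affymetrix Mouse Gene 1.0 ST array. Both groups were C57 Bl/6 mice of 3 to 6 weeks of age with no treatment, and the wild-type mice are given with no transgene or deletion. The other 15 arrays are wild type 1 to 3, HDAC7 knockout and the OT-2 T cell receptor groups, of which only the knockout (labelled HDAC7 knockout, same strain, ages and lack of treatment, with the targeted cells not stated) and wild type 1 to 3 are used below. The sources used here do not name the promoter that drives the transgene, the number of founder lines or the abundance of the fusion protein, so the group is defined by its label.

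HDAC7 is a class IIa histone deacetylase that is abundant in double-positive thymocytes, where it is brought to DNA mainly by MEF2 transcription factors and silences their targets. Signals from the T cell receptor send HDAC7 out of the nucleus, which releases those targets. VP16 is a strong viral activation domain, and its fusion to HDAC7 is meant to turn a repressor into an activator at the same sites. Double-positive cells are largely resting cells that descend from dividing precursors, and they die, mature into CD4 or CD8 single-positive cells or take other fates according to how strongly their receptor is engaged.

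The values are log2 RMA signals, and a gene rose or fell when its adjusted p from the limma fit over all 28923 rows was under 0.05. Of these rows 413 passed (1.43%), 200 that rose (0.691%) and 213 that fell (0.736%), with a median difference of 0.56 among the rises and -0.54 among the falls. Changes of 2-fold or more were unequally spread, with 32 rises and 8 falls. The median over all rows was 0.02, with quartiles of -0.08 and 0.11. Genes could be named only where the authors had listed them in at least 1 comparison of this series, which gave 2119 named rows with 310 of the calls (14.6% of named rows, 169 or 7.98% that rose and 141 or 6.65% that fell), so counts of named genes are not independent evidence. The arrays of the groups did not overlap in 24.0% of all rows and in 55.3% of named rows. Without regard to the test, 44.2% of all rows and 50.6% of named rows were lower in HDAC7-VP16. Arrays of 1 group correlated at r from 0.995 to 0.997 across rows and arrays of different groups at 0.993 to 0.996. The number of arrays limits the precision, and p-values measure the spread between samples that the design text calls biological replicates.

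**Figure D1:**
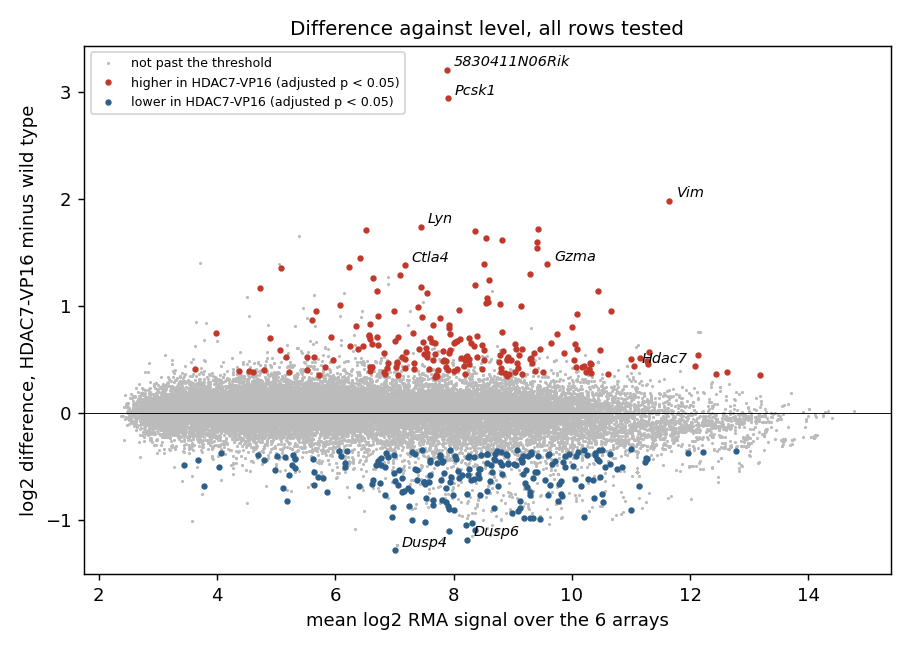
Each point is 1 of the 28923 rows tested, with the mean log2 RMA signal over the 6 arrays on the x axis and the log2 difference, HDAC7-VP16 minus wild type, on the y axis; red and blue points are the 200 rises and 213 falls with an adjusted p under 0.05. The rises reach 3.21, whereas the falls end at -1.28.

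No named marker of double-positive cells passed the test. Of the 10 listed markers 5 were named, 0 passed the limma test, 1 had an unadjusted p under 0.05, and their median difference was 0.04. The median was 0.17 after quantile normalization, where 0 passed in limma and 4 of the 5 had an unadjusted p under 0.05, and 0.20 with all 6 wild-type arrays. The coreceptor genes Cd4 and Cd8b1 differed by 0.08 and 0.04, and Rag1, which codes for the recombinase of receptor assembly, by 0.08. Ptcra, which codes for the partner of the early beta chain, gave -0.24 ± 0.08 (adjusted p = 0.165). Rag2 read 8.05, 8.07 and 7.99 in the HDAC7-VP16 arrays and 8.49, 8.08 and 7.81 in the wild-type arrays, so the wild-type arrays spread over a wider range and enclosed the HDAC7-VP16 values. Cd8a, Cd1d1, Cd24a and Dntt carried no name here.

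Hdac7 itself read 11.19, 11.35 and 11.29 in the HDAC7-VP16 arrays and 10.87, 10.83 and 10.83 in wild type. All HDAC7-VP16 arrays lay above all wild-type arrays, by 0.44 ± 0.07 (adjusted p = 0.0351), a 1.35-fold rise. The call held in 1 of 6 leave-one-out fits. Which part of the Hdac7 message the probe set reads, and whether it reads the transgene, was not tested. Of the other named members of this pathway, Hdac5, the gene of a second class IIa deacetylase, gave 0.50 ± 0.12 (adjusted p = 0.0703), Mef2a gave 0.25 and Mef2d gave -0.27, neither of which passed.

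The rises of 5830411N06Rik, Pcsk1 and Vim were among the largest. 5830411N06Rik, which codes for a scavenger-receptor-type membrane protein known from gamma-delta T cells, read 9.63, 9.32 and 9.52 in HDAC7-VP16 arrays against 6.17, 6.45 and 6.23 in wild type. The groups were far apart, with a difference of 3.21 ± 0.10 (9.24-fold, adjusted p = 3.12e-05). Pcsk1, the gene of a protease that cleaves prohormones in endocrine cells, read 8.96, 9.53 and 9.63 in HDAC7-VP16 arrays against 6.32, 6.59 and 6.38 in wild type (7.68-fold). HDAC7-VP16 array 1 was the lowest of its group and still lay far above every wild-type array. Vim, which codes for the intermediate filament vimentin, was already high in wild type, at 10.60, 10.69 and 10.68, and read 12.79, 12.51 and 12.63 in HDAC7-VP16 arrays (3.96-fold). Vim was thus among the brightest of the risen genes, and its groups lay much farther apart than their own arrays.

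**Figure D2:**
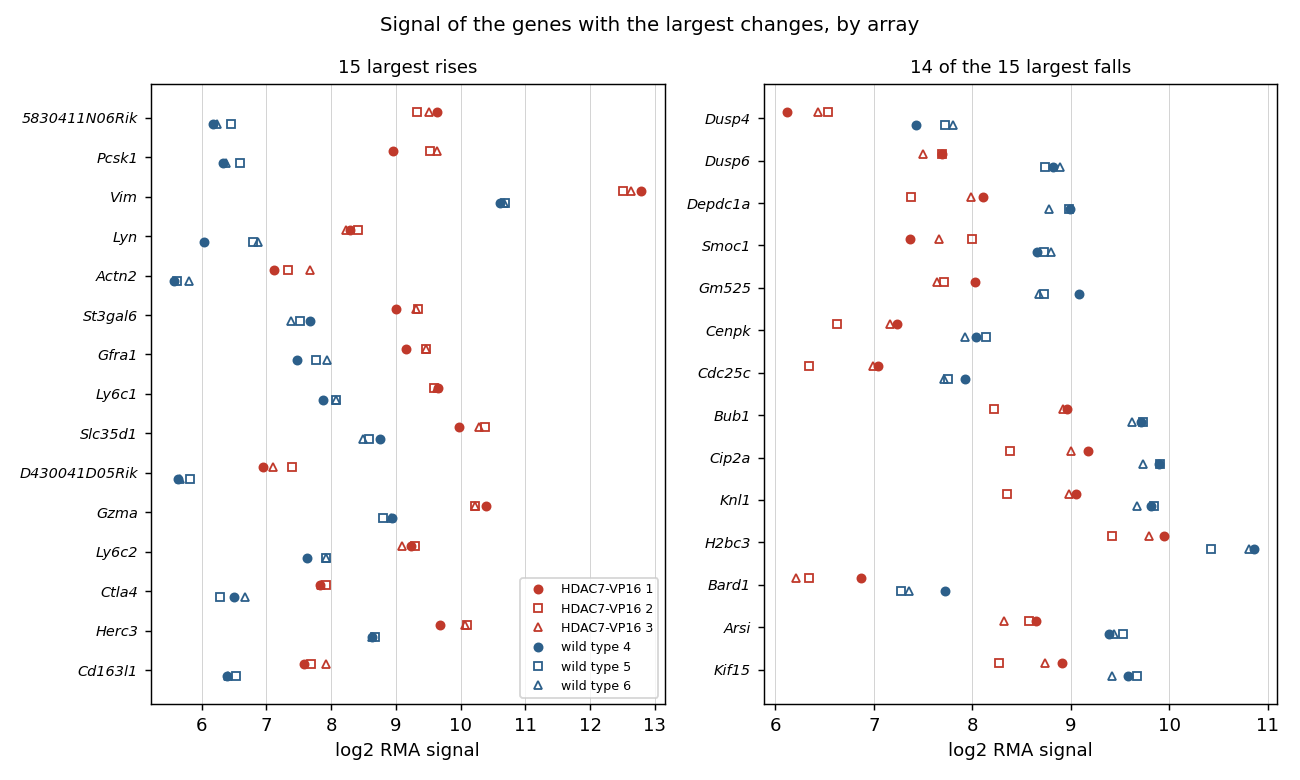
Log2 RMA signal (x axis) of the 15 named genes with the largest rises (left) and 14 of the 15 with the largest falls (right), 1 symbol per array, HDAC7-VP16 in red above wild type in blue. Only genes whose groups do not overlap were eligible, so the groups are apart in every gene drawn by that choice. Among the falls of mitotic genes the second HDAC7-VP16 array lies lowest, while among the rises no array is lowest throughout.

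The promoters of Pcsk1 and Vim, 2 of the largest rises, and of Dusp6, the fall that passed in every leave-one-out fit, are shown as the 120 bases before the RefSeq start on GRCm38.p6. Capitals mark CCAAT boxes on either strand. The Pcsk1 stretch lies at chr13:75089737-75089856 on the plus strand, the Vim stretch at chr2:13574191-13574310 on the plus strand and the Dusp6 stretch at chr10:99263111-99263230 on the plus strand.
Pcsk1: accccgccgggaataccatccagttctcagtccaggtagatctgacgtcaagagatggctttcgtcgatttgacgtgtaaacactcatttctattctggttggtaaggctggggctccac
Vim: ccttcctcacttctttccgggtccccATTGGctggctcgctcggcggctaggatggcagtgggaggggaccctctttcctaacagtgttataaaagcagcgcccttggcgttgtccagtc
Dusp6: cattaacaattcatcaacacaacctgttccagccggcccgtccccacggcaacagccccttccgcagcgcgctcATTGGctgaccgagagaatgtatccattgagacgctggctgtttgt
The Vim and Dusp6 stretches each hold 1 CCAAT box, read as ATTGG on the printed strand, and Pcsk1 holds none. Over the 250 bases before the start, a CCAAT box was found in 35.7% of the 126 risen genes with a window and in 37.5% of all 27025 genes with one. A MEF2 motif was found in 2.38% of the risen genes, 3.77% of the 106 fallen genes with a window and 3.42% of all genes. These are letter matches close to the start, and sites farther away were not searched.

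Rises were also found in the list of innate-like and cytotoxic T cell genes and in the Ly6 family, whose genes code for small lipid-anchored surface proteins. Of 5 named genes of the innate-like and cytotoxic list, 4 rose, namely Gzma, Il18r1, Ly6c1 and Ly6c2, so that the 2 lists share Ly6c1 and Ly6c2. Prf1, the perforin gene, did not pass (-0.14, adjusted p = 0.527), and the median of the list was 1.39. Gzma, the gene of the granule protease granzyme A, read 10.39, 10.22 and 10.23 in HDAC7-VP16 arrays against 8.94, 8.79 and 8.93 in wild type. Those arrays sat in 2 tight groups, 2.62-fold apart. Ly6c1 read 9.65, 9.59 and 9.63 in HDAC7-VP16 arrays against 7.87, 8.08 and 8.07 in wild type (1.62 ± 0.08, adjusted p = 2.36e-04). Ly6c2 followed with 1.39 ± 0.10 and Ly6a, which codes for Sca-1, with 1.20 ± 0.12, so that all 3 named Ly6 genes rose; Ly6c1 and Ly6c2 are close copies, and their probe sets may share signal. Il18r1, a subunit gene of the interleukin 18 receptor, read 5.08, 5.22 and 5.63 in HDAC7-VP16 arrays against 3.99, 4.25 and 4.18 in wild type. The 2 groups did not overlap, although Il18r1 remained one of the dimmer genes named (1.17 ± 0.14, adjusted p = 0.0157). It passed in 3 of 6 leave-one-out fits. The innate-like list held 3 rises without wild-type array 4, 5 or 6. With all 6 wild-type arrays as controls, which crosses normalization groups, it held 2 and the Ly6 list 2. Gzma, Il18r1 and Ly6a did not pass by limma there, although 4 and 3 genes of the lists had an unadjusted p under 0.05. Gzma read 7.5, 8.1 and 7.4 and Ly6a 6.49, 6.37 and 5.79 in wild type 1 to 3.

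Of the 4 named gamma-delta T cell markers 3 rose. The count was 2 without HDAC7-VP16 array 3, without wild-type array 4 or 5, and with all 6 wild-type arrays. It was 4 without wild-type array 6. Cd163l1, a relative of 5830411N06Rik in the same receptor family, read 7.59, 7.68 and 7.92 in HDAC7-VP16 arrays against 6.40, 6.53 and 6.41 in wild type (1.29 ± 0.10, adjusted p = 0.00161). Blk, the gene of a Src-family kinase of B cells and of some gamma-delta T cells, read 6.72, 6.46 and 6.58 against 5.46, 5.46 and 5.81 in wild type. Its groups did not overlap (1.01 ± 0.12, adjusted p = 0.0117), and Maf, a transcription factor gene of interleukin 17-producing cells, gave 0.49 (adjusted p = 0.0599). Blk passed in 3 of 6 leave-one-out fits. Among 17 named segments of T cell receptor and immunoglobulin genes 1 passed, Trgv3, a variable segment of the gamma chain, which was singled out after its values were seen. Trgv3 read 9.84, 10.64 and 10.40 in HDAC7-VP16 arrays against 8.0, 8.66 and 9.06 in wild type (1.72 ± 0.28, adjusted p = 0.0355), with a wider spread than the genes above. In sorted bulk samples more or fewer cells of a type and more or less RNA per cell cannot be told apart. The summed linear signal of the 4 named gamma-delta markers was 1039 to 1204 in HDAC7-VP16 arrays against 273 to 308 in wild type. The largest part of each HDAC7-VP16 sum was 5830411N06Rik, so these sums mostly restate the rise of that gene. Blk and Gzma are also markers of B cells and of NK cells, and they were the only 2 that passed in the lists of B cells (1 of 3 named), NK and innate lymphoid cells (1 of 2) and macrophages and dendritic cells (0 of 2 by limma, both with an unadjusted p under 0.05). Over those lists the summed linear signal was 823 to 909 in HDAC7-VP16 arrays against 612 to 764 in wild type for B cells, 1350 to 1472 against 604 to 658 for NK and innate lymphoid cells, and 195 to 296 against 134 to 176 for macrophages and dendritic cells. Gzma made up most of the NK and innate lymphoid sum in every array. The part of these cell types in the result was not tested, and the defining genes Ms4a1, Ncr1, Nkg7 and Csf1r carry no name here.

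Lyn, the gene of a Src-family kinase of B and myeloid cells, read 8.30, 8.42 and 8.23 in HDAC7-VP16 arrays against 6.04, 6.80 and 6.88 in wild type. Wild-type array 4 was the lowest by a wide margin, and the rise of 1.74 ± 0.20 (3.35-fold, adjusted p = 0.0117) passed in 5 of 6 leave-one-out fits. Lyz1, a lysozyme gene of myeloid cells, read 6.25, 7.23 and 7.18 in HDAC7-VP16 arrays against 5.61, 6.11 and 6.24 in wild type. HDAC7-VP16 array 1 lay next to wild-type array 6, and the difference of 0.90 ± 0.27 did not pass (adjusted p = 0.127). Itgam, the gene of an integrin of myeloid cells, read 6.89, 7.12 and 7.24 in HDAC7-VP16 arrays against 6.40, 6.62 and 6.66 in wild type. Its groups did not overlap, and the difference of 0.52 ± 0.11 did not pass (adjusted p = 0.0568). The part of these myeloid genes in the rise of Lyn was not tested.

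Some receptors, adhesion genes and regulators of later T cells passed, while most named members of their lists did not. Of 22 named genes of post-selection maturation 5 rose, 2 fell and 15 did not pass, with a median of 0.15. By sign 15 of the 22 were higher. By limma 13 had an unadjusted p under 0.05, 5 of them lower. Ms4a6b, a membrane protein gene of maturing T cells, read 10.52, 10.57 and 10.55 in HDAC7-VP16 arrays against 9.59, 9.61 and 9.68 in wild type. The values within each group differed by under 0.1, and the rise was 0.92 ± 0.06 (adjusted p = 0.00134). Its relative Ms4a4b (0.90), Gata3 (0.60), which directs the CD4 lineage, the class I gene H2-Q1 (0.63) and the homing integrin gene Itgb7 (1.04) rose as well. Ms4a4b, Gata3 and H2-Q1 each passed in 2 of 6 leave-one-out fits and Itgb7 in 1. The 5 rises of the list became 1 without HDAC7-VP16 array 3 or without wild-type array 5 or 6, 2 without wild-type array 4, and 0 by limma with all 6 wild-type arrays, where 14 of its genes had an unadjusted p under 0.05. Cd52 fell by 0.50 and Cd69 by 0.89. Ccr7, Zbtb7b and Slamf1 of the same list differed by -0.05, 0.05 and 0.13 and did not pass.

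Ctla4, the gene of an inhibitory receptor of activated and regulatory T cells, read 7.82, 7.92 and 7.84 in HDAC7-VP16 arrays against 6.50, 6.28 and 6.67 in wild type. The HDAC7-VP16 values sat close together, and the rise was 1.38 ± 0.10 (2.60-fold, adjusted p = 0.00152). Of the 6 named regulatory T cell genes Il2ra, which codes for the interleukin 2 receptor alpha chain, rose too. Il2ra read 7.69, 8.36 and 8.07 in HDAC7-VP16 arrays against 6.48, 6.89 and 7.22 in wild type, with wide spread in both groups (1.18 ± 0.21, adjusted p = 0.0444), and a call in 1 of 6 leave-one-out fits. Ikzf2 (0.35) and Nrp1 (-0.32), both linked to regulatory T cells, did not pass. Pdcd1, the gene of the inhibitory receptor PD-1, read 7.14, 6.97 and 7.11 in HDAC7-VP16 arrays against 7.69, 7.75 and 7.67 in wild type. It fell by 0.62 (adjusted p = 0.0117), so that Ctla4 and Pdcd1 moved in opposite directions among 8 named inhibitory receptor genes, of which 6 did not pass.

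Of 12 named cytokine receptor genes 10 were higher and 4 rose: Il18r1, Il2ra, Il17rb (0.75 ± 0.13) and Ifngr1 (0.39 ± 0.06). Il17rb binds interleukin 25 and Ifngr1 binds interferon gamma, and each passed in 1 of 6 leave-one-out fits. By limma the list held 0 rises without wild-type array 4, 5 or 6, where 6, 7 and 6 of its genes had an unadjusted p under 0.05, and 0 with all 6 wild-type arrays, where 6 did. It held 1 without HDAC7-VP16 array 2 or 3. Stat4, which carries interleukin 12 signals, read 10.03, 10.20 and 10.15 in HDAC7-VP16 arrays against 9.36, 9.44 and 9.35 in wild type. Stat4 was the 1 gene of 8 in the JAK, STAT and SOCS list that passed, with a rise of 0.74 ± 0.07 (adjusted p = 0.00631). Of 26 named interferon-stimulated genes 21 were higher with a median of 0.23, but 0 passed in limma, where 11 had an unadjusted p under 0.05. With array weights 3 of them passed. The HDAC7-VP16 array 2 was the highest of its group in 24 of these 26 genes. The largest difference in that list was that of Tgtp1, a GTPase gene, with 7.93, 8.57 and 8.10 in HDAC7-VP16 arrays against 7.69, 7.54 and 7.70 in wild type (adjusted p = 0.0976).

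**Figure D3:**
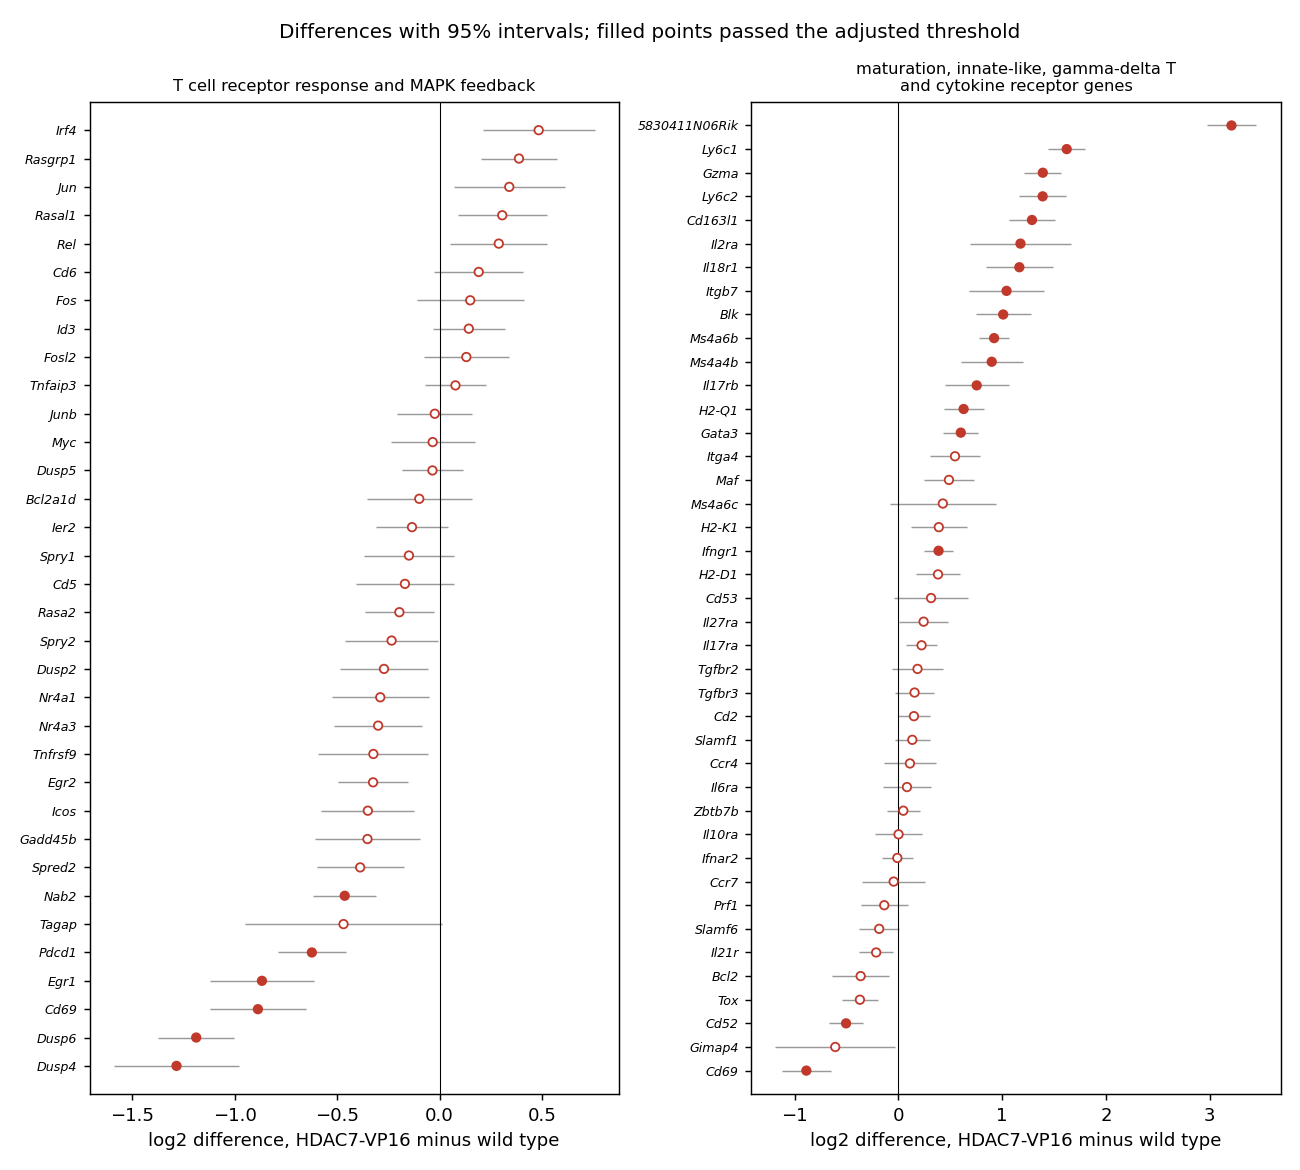
Log2 differences, HDAC7-VP16 minus wild type (x axis), with 95% intervals of the limma fit for the named genes reported from 6 lists (y axis); filled points have an adjusted p under 0.05 over all rows. In the left panel the filled points are 6 falls, Dusp4 to Nab2, and in the right panel all but Cd52 and Cd69 are rises.

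Further rises were found among genes of glycans, of the cytoskeleton and of growth factor reception. All 6 named glycan enzyme genes were higher, 3 rose, and the median was 0.61. St3gal6, a sialyltransferase gene, read 9.01, 9.34 and 9.32 in HDAC7-VP16 arrays against 7.67, 7.52 and 7.38 in wild type (1.70 ± 0.11, adjusted p = 0.00129). St6gal1, another sialyltransferase gene (1.00 ± 0.11), and Mgat5, which branches N-glycans (0.80 ± 0.08), each passed in 4 of 6 leave-one-out fits. Slc35d1, which is outside that list and codes for a carrier of nucleotide sugars, read 9.98, 10.38 and 10.28 in HDAC7-VP16 arrays against 8.75, 8.59 and 8.49 in wild type. In all of these genes HDAC7-VP16 array 1 was the lowest of its group, and the groups did not overlap.

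Of 15 named cytoskeletal genes Vim, Actn2 and Myo1f rose and 12 did not pass, with a list median of 0.02. Actn2, the gene of the muscle alpha-actinin, read 7.12, 7.34 and 7.67 in HDAC7-VP16 arrays against 5.57, 5.62 and 5.80 in wild type (1.71 ± 0.14, adjusted p = 0.00229). Myo1f, a class I myosin gene of blood cells, rose by 1.25 ± 0.09. Of the same list Lgals1 (-0.22), S100a11 (0.04), Crip1 (-0.32) and Anxa2 (0.03), did not pass. Gfra1, which codes for the receptor of the growth factor GDNF, read 9.15, 9.46 and 9.47 in HDAC7-VP16 arrays against 7.48, 7.77 and 7.93 in wild type. The groups were 3.11-fold apart (adjusted p = 0.00246), and Pdgfrb, a growth factor receptor gene of stroma, gave 0.48 (adjusted p = 0.0652).

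The rises held up unevenly when arrays were left out, with 33 to 149 of the 169 named rises called, 33 of them without HDAC7-VP16 array 3 and 33 without wild-type array 5. In all, 31 named genes passed with the full set of 6 arrays, in all 6 leave-one-out fits and under both other scalings, 30 of which rose, while Dusp6 fell. Beside the genes above these were Lmo4, a transcriptional cofactor gene (1.14), Herc3, a ubiquitin ligase gene (1.30), Akr1c13, an aldo-keto reductase gene (1.26), and Cdc14b, a phosphatase gene (1.12). They also included Slc49a4 (0.95), a lysosomal transporter gene, Pip5k1b (0.96), a phosphoinositide kinase gene, and Cpq (0.95), a carboxypeptidase gene. The smaller of them were Ramp3 (0.83), a partner of calcitonin-type receptors, Kmo (0.70), an enzyme gene of tryptophan breakdown, Trdmt1 (0.66), a tRNA methyltransferase gene, and Lpxn (0.64), an adhesion adaptor gene. With all 6 wild-type arrays as controls, which crosses normalization groups, 20 of the 31 rose and 0 fell by limma. All 31 had an unadjusted p under 0.05 there. Lmo4 read 11.15, 10.85 and 11.02 in HDAC7-VP16 arrays against 9.87, 9.86 and 9.87 in wild type. The wild-type arrays differed by about 0.01, so the spread of this comparison came from the HDAC7-VP16 arrays.

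Genes that answer T cell receptor signals were in part lower. Of 24 named genes of the receptor response list 16 were lower, 4 fell, 0 rose, and the median was -0.15. Over all named rows 50.6% were lower. Egr1, an immediate-early transcription factor gene, read 7.36, 7.66 and 7.41 in HDAC7-VP16 arrays against 8.16, 8.39 and 8.48 in wild type (-0.87 ± 0.11, adjusted p = 0.0185). Cd69, an early activation marker that holds cells in the thymus, read 8.13, 8.46 and 8.15 against 9.10, 9.07 and 9.23 in wild type. HDAC7-VP16 array 2 was the highest of its group for both genes, and neither gene overlapped between groups. Nab2, a corepressor that EGR proteins induce, fell by 0.46 (adjusted p = 0.0283), and Pdcd1 is given above. Other immediate-early genes did not pass, with Fos at 0.15, Junb at -0.02, Myc at -0.03, Egr2 at -0.32 and Nr4a1, which codes for the death-linked receptor Nur77, at -0.29. Irf4 (0.48) and Jun (0.34) were higher without passing. Without HDAC7-VP16 array 3 or wild-type array 5 the list held 0 falls by limma, with 8 lower genes at an unadjusted p under 0.05 in each case. Without wild-type arrays 4 and 6 in turn it held 1 and 2 falls. With all 6 wild-type arrays as controls it held 0, with 2 lower genes at an unadjusted p under 0.05, and its median was 0.07.

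Among 10 named feedback regulators of the MAPK pathway 8 were lower and 2 fell, with a median of -0.22. Dusp6, the gene of an ERK phosphatase, read 7.69, 7.69 and 7.50 in HDAC7-VP16 arrays against 8.82, 8.74 and 8.89 in wild type. It was 1.19 lower (2.28-fold, adjusted p = 0.00129), with the 2 groups more than 1 unit apart at their nearest arrays. Dusp4, which codes for a nuclear phosphatase of the same family, read 6.12, 6.54 and 6.44 against 7.42, 7.72 and 7.80 in wild type (-1.28 ± 0.13, adjusted p = 0.00777). Spred2 (-0.39), Spry2 (-0.23) and Spry1 (-0.15), which restrain Ras signals, did not pass, and Dusp5 differed by -0.03. Rasgrp1, the exchange factor that links the receptor to Ras, gave 0.39 ± 0.08 (adjusted p = 0.0568). Of 9 named parts of the receptor signalling machinery 0 passed in limma and 2 had an unadjusted p under 0.05, with a median of 0.08. Of those parts Prkcq, a kinase gene of the receptor synapse, gave 0.30.

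Genes of cell division were lower almost without exception, but by an amount that differed between the 3 HDAC7-VP16 arrays. In the mitosis list all 99 named genes were lower and 19 fell, with a median of -0.83. In the list of DNA replication and S phase 45 of 46 were lower and 14 fell, with a median of -0.68; the exception was Orc1 at 0.34 (adjusted p = 0.0568). All 25 named replication-dependent histone genes were lower and 4 fell, with a median of -0.60, although these genes are near-identical copies whose probe sets may share signal. Most members of these lists carry a name because the authors listed them, so the counts describe a group already selected.

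Within the transgenic group the order of the arrays was the same in nearly every gene. HDAC7-VP16 array 2 was the lowest of the 3 in 98 of 99 mitosis genes, 44 of 46 replication genes and 24 of 25 histone genes. Array 1 was the highest of the 3 in 93, 43 and 24 of them. The median mitosis gene lay 0.50, 1.30 and 0.71 below the wild-type mean in HDAC7-VP16 arrays 1, 2 and 3, whereas its wild-type values lay within 0.09 of that mean. Over all rows the same medians were 0.00, 0.03 and 0.02 for HDAC7-VP16 arrays 1, 2 and 3. The median SD of a mitosis gene was 0.41 over the HDAC7-VP16 arrays against 0.10 over wild type, while over all rows it was 0.10 against 0.09. Of the 169 named genes that rose 103 were lowest in array 1, 42 in array 2 and 24 in array 3.

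**Figure D4:**
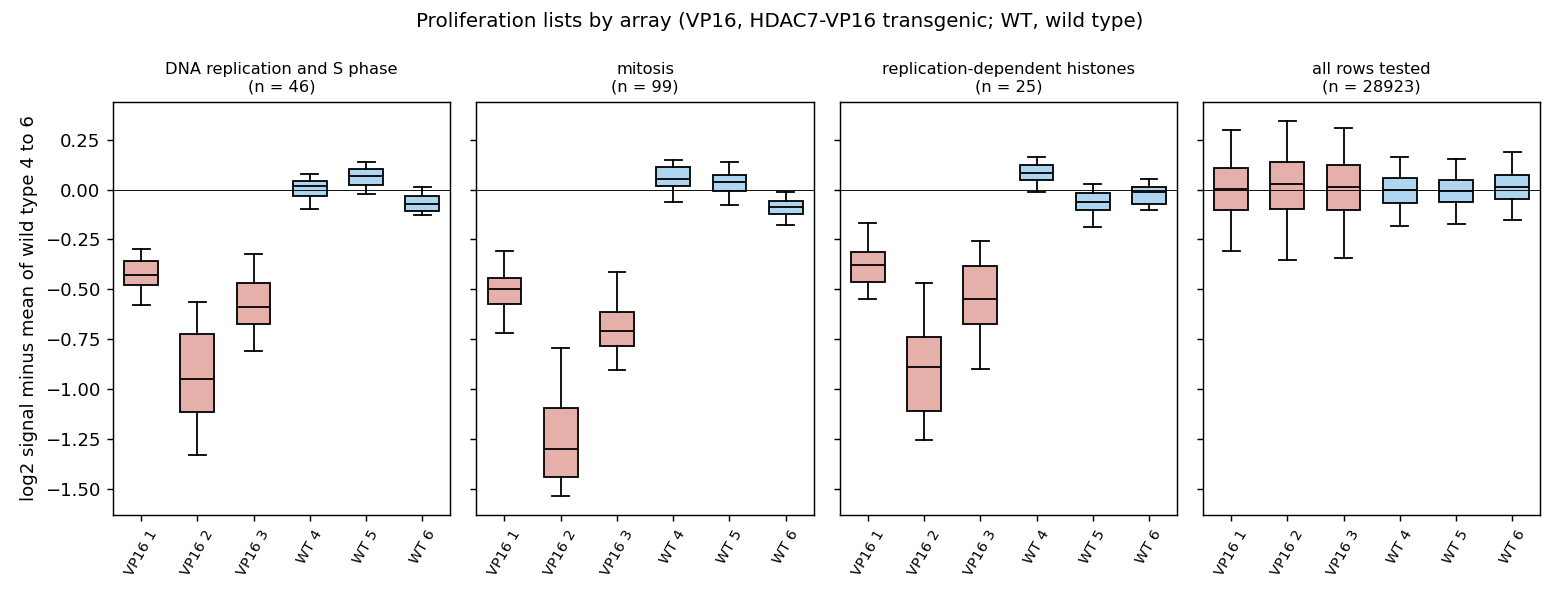
Log2 signal of each gene minus its mean over wild type 4 to 6 (y axis) in each array (x axis), for 3 proliferation lists and for all rows tested; boxes span the quartiles with the median as a line, whiskers the 5th to 95th percentiles. HDAC7-VP16 arrays, in red, are lower than wild type, in blue, with array 2 lowest, while the boxes for all rows lie near 0 in every array.

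Kinetochore and centromere genes were among the largest of these falls. Cenpk, a kinetochore gene, read 7.24, 6.63 and 7.17 in HDAC7-VP16 arrays against 8.04, 8.14 and 7.93 in wild type (-1.03 ± 0.15, adjusted p = 0.031). HDAC7-VP16 array 2 was the lowest, and all HDAC7-VP16 arrays lay below wild type. Bub1, the spindle checkpoint kinase gene, fell by 0.99, Knl1, which codes for its kinetochore platform, by 0.98 and Cdc25c, a phosphatase gene of mitotic entry, by 1.00. None of these 3 passed after quantile normalization. Espl1, the gene of separase, had the smallest adjusted p of the list (0.0295), with 7.38, 7.08 and 7.35 in HDAC7-VP16 arrays against 7.93, 7.99 and 7.82 in wild type.

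Of the replication genes Pole2, a subunit gene of DNA polymerase epsilon, had the smallest adjusted p (0.0204). It read 7.33, 7.03 and 7.22 in HDAC7-VP16 arrays against 7.91, 7.86 and 7.80 in wild type. Rfc4, which codes for part of the clamp loader, fell by 0.78, Brca1, a repair gene, by 0.63, and Orc6, an origin recognition gene, by 0.61. Bard1, whose product pairs with that of Brca1, fell by 0.97, with its lowest value in array 3. Among the histone genes H2bc3 read 9.95, 9.42 and 9.80 in HDAC7-VP16 arrays against 10.86, 10.42 and 10.81 in wild type, so that the highest HDAC7-VP16 arrays lay well below the lowest wild-type array. The number of these falls depended on which arrays were present. Without HDAC7-VP16 array 2 the mitosis, replication and histone lists held 33, 7 and 2 falls, and without array 1 they held 82, 40 and 15. Without HDAC7-VP16 array 3, or without any 1 of wild-type arrays 4, 5 and 6, they held 0 falls each by limma, while the list medians lay between -0.56 and -0.90 and 98 to 99, 44 to 45 and 25 of their genes were lower with an unadjusted p under 0.05. With all 6 wild-type arrays as controls, which crosses normalization groups, they held 0, 0 and 1 falls, and 77 mitosis and 24 replication genes were lower with an unadjusted p under 0.05.

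Promoters of fallen cell-division genes are shown because these genes moved together and E2F factors are known to drive many of them. Each is the 120 bases before a RefSeq start on GRCm38.p6, with E2F motifs and CCAAT boxes in capitals. Kif15, a spindle kinesin gene, lies at chr9:122950961-122951080 on the plus strand. Arhgap11a, a GTPase regulator of cytokinesis, lies at chr2:113848662-113848781, Ncapd2, a condensin subunit gene, at chr6:125191587-125191706, and a start of E2f3, an E2F factor gene, at chr13:29986064-29986183, all on the minus strand. Kif15 is among the genes named by the rule, and the other 3 were chosen after their values and motifs were seen. E2f3 is in none of the proliferation lists. Every stretch printed holds an E2F motif. Bub1, Cenpk and Pole2, also named by the rule, held none in the 250 bases before the start and are not shown. Another E2f3 start, at chr13:29984392-29984511 on the minus strand, held none there either and is not shown.
Kif15: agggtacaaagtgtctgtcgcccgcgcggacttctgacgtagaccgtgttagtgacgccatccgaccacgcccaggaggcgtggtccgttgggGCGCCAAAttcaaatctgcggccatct
Arhgap11a: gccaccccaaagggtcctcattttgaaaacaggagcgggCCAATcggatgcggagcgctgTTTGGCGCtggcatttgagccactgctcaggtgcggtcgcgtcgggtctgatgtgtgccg
Ncapd2: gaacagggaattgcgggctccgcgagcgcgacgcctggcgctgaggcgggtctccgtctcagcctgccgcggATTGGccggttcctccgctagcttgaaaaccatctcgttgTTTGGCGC
E2f3: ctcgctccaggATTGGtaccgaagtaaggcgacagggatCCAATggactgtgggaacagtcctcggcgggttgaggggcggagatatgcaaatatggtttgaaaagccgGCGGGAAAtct
E2F motifs were searched as TTTCCCGC, TTTGGCGC, TTTCGCGC and TTTGCCGC on both strands, and TTTCGCGC can overlap its own reverse complement. Over the 250 bases before the start they were found in 14 of the 106 fallen genes with a window (13.2%), in 2 of the 126 risen genes (1.59%) and in 2.16% of all 27025 genes with a window. The named replication genes held them in 11 of 37 (29.7%) and the mitosis genes in 7 of 78 (8.97%). The CCAAT box was found in 55.7% of fallen genes, against 37.5% of all genes. The element TTTGAA, known from mitotic promoters, was found on either strand in 37.2% of mitosis genes, 10.8% of replication genes and 18.3% of all genes. A gene with several starts counted once if any window held the motif.

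Kif15 read 8.91, 8.27 and 8.74 in HDAC7-VP16 arrays against 9.58, 9.67 and 9.41 in wild type, and Arhgap11a read 9.58, 9.02 and 9.47 against 10.27, 10.18 and 10.09. Ncapd2 fell by 0.62 and E2f3 by 0.67. E2f3 read 6.51, 6.24 and 6.10 in HDAC7-VP16 arrays against 6.90, 7.09 and 6.87 in wild type, so that its lowest array was array 3. Its order thus differed from that of the mitotic genes.

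Other falls lay outside cell division. Smoc1, a matrix glycoprotein gene, read 7.37, 8.0 and 7.67 in HDAC7-VP16 arrays against 8.66, 8.73 and 8.80 in wild type (-1.05 ± 0.14, adjusted p = 0.0237). Its lowest value was in array 1 and its highest in array 2, the reverse of the mitotic genes. Arsi, an arylsulfatase gene, fell by 0.93 and passed in 5 of 6 leave-one-out fits. Jup, the gene of the junction protein plakoglobin, fell by 0.55 and Tfrc, the transferrin receptor gene of growing cells, by 0.41. Jup and Tfrc each passed in 1 of 6 leave-one-out fits, and neither passed by limma with all 6 wild-type arrays. Over all 12 alternative settings Smoc1 passed in 7. Among death genes Tnfsf10, the gene of the death ligand TRAIL, rose by 0.75, and the survival genes Bcl2 (-0.36) and Bcl2l1 (0.04) did not pass. Of the lists not yet described, cholesterol and fatty acid synthesis (13 named), survival genes (8), genes of the pre-selection stage (11) and SLAM receptors (3) held 0 calls each by limma, with 6, 1, 5 and 1 genes at an unadjusted p under 0.05. Of the 12 named NF-kB pathway genes Traf1 rose (0.40), and of 5 double-negative stage genes Il2ra and Dtx1 (0.69), a Notch target, rose, while Hes1 (0.51), another Notch target, did not pass. By limma the NF-kB list held 0 rises with any 1 array left out or with centred columns. In those fits 1 to 3 of its genes had an unadjusted p under 0.05. Dtx1 and Tnfsf10 each passed in 1 of 6 leave-one-out fits, and Dtx1 lost its limma call after quantile normalization (adjusted p = 0.0518).

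The knockout of HDAC7, which removes the repressor, asks a question related to that of the activator fusion, and the 2 comparisons share no array. Hdac7 read 10.98, 10.94 and 10.97 in the knockout arrays against 11.42, 11.01 and 11.48 in wild type 1 to 3, a difference of -0.34 ± 0.14 (adjusted p = 0.664), and whether its probe set lies in the deleted part is not known here. The knockout fit, made without blocking the arrays by number, called 234 rows (0.809%). The difference between the effects passed in 232 rows (0.802%). Of the 169 named genes that rose in HDAC7-VP16, 130 were also higher in the knockout and 42 rose there. Of the 141 that fell, 54 were lower in the knockout and 11 fell there. Genes are named in part through the authors' knockout list. The share of all rows higher in the knockout is not given here, so these counts only describe the named genes. For 51 of these 310 genes the effects differed by the test of the difference, 34 of them with opposite signs. When the knockout arrays and their controls were blocked by number, 124 of the 310 differed. These were 52 of the rises and 72 of the falls, against 35 and 16 without the block. Errors and adjusted p given for single genes are from the fit without the block.

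Some genes rose more in HDAC7-VP16 than in the knockout. Pcsk1 rose by 2.94 in HDAC7-VP16 and gave 0.70 ± 0.36 in the knockout, a difference of 2.24 ± 0.45 (adjusted p = 0.0422). Vim rose by 1.99 and gave 0.70 ± 0.14, a difference of 1.29 ± 0.16 (adjusted p = 0.00292). Lyn (1.74 in HDAC7-VP16 and -0.38 in the knockout), Blk (1.01 and -0.23), Akr1c13 (1.26 and 0.07), Slc49a4 (0.95 and 0.02) and Cpq (0.95 and -0.07) differed as well, each with an effect near or below 0 in the knockout. Hdac7 gave 0.44 in HDAC7-VP16 and -0.34 in the knockout, a difference of 0.78 ± 0.16 (adjusted p = 0.0435).

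Others rose less. 5830411N06Rik rose by 3.21 in HDAC7-VP16 and by 4.87 in the knockout, where it read 10.59, 11.30 and 11.12 against 5.99, 6.22 and 6.20 in wild type 1 to 3. The difference was -1.66 ± 0.23 (adjusted p = 0.00456). Ms4a4b (0.90 in HDAC7-VP16 and 2.59 in the knockout), Il17rb (0.75 and 1.94) and Lmo4 (1.14 and 2.01) differed in the same way. Jup fell less in HDAC7-VP16 (-0.55) than in the knockout (-2.33), a difference of 1.78 ± 0.22 (adjusted p = 0.00234). The pre-selection genes Ets2 (-0.27 and -1.49) and Ptcra (-0.24 and -1.11) also differed and passed only in the knockout.

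For several genes no difference between the effects was found. Actn2 rose by 1.71 in HDAC7-VP16 and 1.78 in the knockout (difference -0.07 ± 0.21, adjusted p = 0.932), and Dusp4 gave -1.28 and -1.25 (-0.04 ± 0.20, adjusted p = 0.968). Dusp6 (-1.19 in HDAC7-VP16 and -1.08 in the knockout), Egr1 (-0.87 and -0.93) and Cdc14b (1.12 and 1.14) were likewise not called different, which does not show that they are equal. Cell-division genes named above had opposite signs, with Cenpk at -1.03 in HDAC7-VP16 and 0.51 in the knockout, Bub1 at -0.99 and 0.28 and Kif15 at -0.92 and 0.39. The differences between the effects of these 3 genes passed only with the replicate block.

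**Figure D5:**
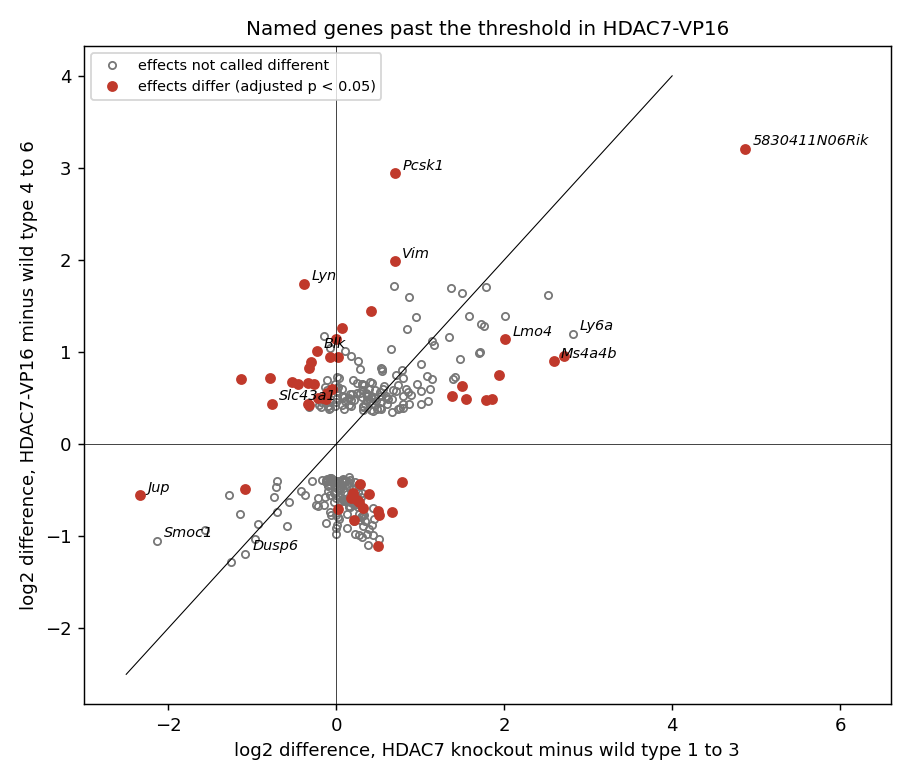
Each point is 1 of the 310 named genes that passed in HDAC7-VP16, with the log2 difference of the knockout from wild type 1 to 3 on the x axis and that of HDAC7-VP16 from wild type 4 to 6 on the y axis; the diagonal marks equal effects. The 51 filled points are genes whose effects differ in the fit without the replicate block, with Pcsk1, Vim and Lyn above the diagonal and 5830411N06Rik below it.

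The authors' deposited table for this comparison lists 772 rows by SAM, of which 758 were tested here. Of these, 324 passed here, which is 42.7% of their list and 78.5% of the calls made here. In 757 of the 758 rows the arrays of the groups did not overlap, against 24.0% of all rows. The authors chose their list on these same arrays, so these shares describe method and threshold only. Of the 103 rows that passed without a name, the largest rises were probe sets 10407940 (1.54) and 10485550 (1.37), and the largest falls 10455967 (-0.99) and 10507653 (-0.90).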

How the data were processed

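RNA of sorted CD4 CD8 double-positive thymocytes was measured on 1-colour arrays, 3 per group. The deposited values are log2 signals that the authors made with RMA in Affymetrix Expression Console, per the submitters' processing notes, in normalization groups that follow the comparisons, per the series design text; the sources used here give no versions. Per the deposited readme, the authors' tables hold SAM results, in which a fold is the compared group's ratio to its control, beside a d score and a q-value in percent. The log2 of the authors' fold for HDAC7-VP16 equals the difference of the deposited group means (r = 1).

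Of 35556 rows 6612 control rows were left out and for genes with more than 1 probe set the dimmer was removed (21 rows), which left 28923 rows, 2119 of them named through the authors' tables. Of the 2301 table rows 1922 were named by accession, 118 by current symbol, 63 by synonym, 37 by the symbol of the file, 160 had no gene and 1 had several. Array medians ranged from 6.01 to 6.09. No transformation or filter was applied, and no sample was dropped or imputed. The main test was limma 3.58.1 run under R 4.3.3, with lmFit and eBayes on the 6 arrays and Benjamini-Hochberg adjustment over all rows; errors are standard errors of that fit and intervals cover 95%. The difference from the knockout effect was fitted on 12 arrays in 4 groups. The fit was tested on simulated data. Motifs were searched in RefSeq promoter windows (GRCm38.p6). Python 3.11.15, pandas 2.3.3, numpy 2.4.6 and matplotlib 3.10.9 were used for summaries and plots.

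Genes were named by rule: Hdac7 and Hdac5, the 15 largest rises and 15 largest falls without overlap and above the median level, up to 4 members per list with the smallest adjusted p (or up to 2 with the largest difference where none passed), and every gene that passed throughout; further list members are given with their values to describe a list. Some genes that the rule or the lists name are not reported here, though counts include them. Members and the 39 lists (793 genes, 401 named) were chosen with earlier results of these data known. The alternatives were quantile normalization, median centring, eBayes with trend and robust, array weights, a filter on dim rows, all 6 wild-type arrays as controls and each array left out in turn. Deviations from the group means of the knockout and wild type 1 to 3 correlated at 0.42, 0.26 and 0.25 for equal replicate numbers. For unequal numbers they correlated at most at 0.00. Deviations cancel out within each group, so the low values follow in part from the higher ones. Pairing by number is thus an assumption of the replicate block.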

Additional observations from a re-analysis of the deposited data

How the results depend on the processing

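The count of 413 rows (200 that rose and 213 that fell) changed under every setting tried. It was 306 after quantile normalization (183 and 123) and 575 with columns centred on their medians (184 and 391). It was 1620 with trend and robust eBayes (579 and 1041), 1083 with array weights (403 and 680), 1723 with the filter on dim rows (619 and 1104), which tests fewer rows, and 34 with all 6 wild-type arrays (31 and 3). With 1 array left out it ranged from 35 to 791, with 34 to 291 rises and 1 to 500 falls; rises and falls numbered 291 and 500 without HDAC7-VP16 array 1, 76 and 87 without array 2 and 34 and 4 without array 3. Leaving out wild-type array 4 gave 46 and 6, wild-type array 5 gave 34 and 1, and wild-type array 6 gave 59 and 20. The cause was not tested. Of the 82 named genes that passed, 8 lost the call after quantile normalization, 1 with centred columns, 2 with trend and robust, 56 with all 6 wild-type arrays and 1 to 50 when an array was left out. Signs turned for genes that had not passed: Rag2 (0.010 with all 6 wild-type arrays, and -0.25 to 0.091 with 1 array left out, the highest without wild-type array 4), Bcl2a1d (0.28 with all 6 wild-type arrays, and -0.20 to 0.011, the highest without wild-type array 5), Slamf6 (0.10) and Ptcra (0.32), the last 2 with all 6 wild-type arrays.

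No paired analysis was possible because HDAC7-VP16 arrays are numbered 1 to 3 and their controls 4 to 6. The difference from the knockout effect passed in 232 rows, in 275 after quantile normalization and in 649 with the replicate block. With 1 array left out it ranged from 94 (without HDAC7-VP16 array 3) to 400 (without wild-type array 1). The 3 arrays per group limit which differences can pass, and only genes in the authors' tables have names.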
